A study of Mus musculus with 6 samples.

Results

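The 10 genes described are *Ankrd1*, *Ctgf* (*Ccn2* in RefSeq), *Cyr61* (*Ccn1*), *Amotl2*, *Lats2*, *Yap1*, *Wwtr1*, *Tead1*, *Tead2* and *Tead4*, out of 20405 genes with a symbol in the deposited table. They were picked by symbol from the Hippo pathway and its targets, with earlier results of these arrays known. Where a gene had several probe sets the brightest on average was read, a choice that mattered only for *Tead1*, which had 2. The arrays compare M0505 cells, a mouse ovarian surface epithelial line of FVB/N strain, with STOSE cells, the spontaneously transformed line that arose from M0505 on long culture. Each line had 3 biological replicates, numbered 1 to 3, and both were grown in the same serum-containing medium with EGF and insulin, transferrin and selenium supplement. Each line is a single culture lineage, so p-values measure the spread between arrays of these lines and not between independent transformations. Nothing in the labels says how the replicates were separated.

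The Hippo pathway restrains growth by holding the coactivators YAP (*Yap1*) and TAZ (*Wwtr1*) out of the nucleus. The kinases MST1 and MST2 activate LATS1 and LATS2, which phosphorylate YAP and TAZ. Unphosphorylated YAP and TAZ enter the nucleus, bind the TEAD factors and switch on target genes such as *Ctgf*, *Cyr61* and *Ankrd1*. The activity of the pathway is set largely by phosphorylation and by the place of the proteins in the cell, which an RNA measurement does not see. In epithelia such as the ovarian surface epithelium, YAP and TAZ respond to cell density, cell shape and junctions.

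Values are robust multi-array average (RMA) log2 values, so a difference of 1 is a 2-fold difference. The log2 fold change is the STOSE mean minus the M0505 mean. A gene was called higher or lower at an adjusted p under 0.05 (limma, Benjamini-Hochberg over the 20405 genes) and a difference of at least 2-fold. By this rule 12.5% of all genes were called, 4.9% higher and 7.59% lower in STOSE cells. The adjusted p alone was passed by 56.5% of all genes, 31.6% higher and 24.8% lower, and the median log2 fold change over all genes was 0.08. As a mark of background, the 95th percentile of 1134 olfactory receptor probe sets was 4.74. Centring each array on its median over the 20405 genes would raise every log2 fold change by 0.20 and would turn the split of calls from 1000 higher and 1548 lower to 1466 higher and 1177 lower. Centring on the median over all 28944 probe sets gave 1035 and 1514.

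Of 10 surface epithelium markers 9 were lower in STOSE cells at the adjusted p, beside 24.8% of all genes, and *Lhx9* lay near background in both lines. Of the 9, *Krt8* (23.5-fold), *Krt19* (47.2-fold), *Gata4* (2.60-fold) and *Krt7* (2.04-fold, not called after centring on the gene median) fell, while *Upk1b*, *Upk3b*, *Msln*, *Wt1* and *Krt18* were lower by less than 2-fold and read above log2 10 in both lines. The mean log2 value of the 10 markers was 10.68 to 10.78 in M0505 arrays and 9.14 to 9.28 in STOSE arrays. Centring on the gene median left 7 of the 10 lower at the adjusted p and put 1, *Lhx9*, higher. Of 16 markers of other cell types 4 were higher (*Cd3e*, *Cdh5*, *Tie1* and *Amh*, all by less than 2-fold) and 5 lower at the adjusted p. These counts lie near the shares of all genes, 31.6% higher and 24.8% lower. They depend on the scaling. With the gene-median centring 5 leukocyte markers were higher and 1 lower, 3 and 2 endothelial, and 2 and 1 granulosa markers. Of the 5 markers lower before centring, *Cd68* fell 7.08-fold and *Inha* 15.3-fold. *Kdr* fell from 9.58 to 4.41, under the background mark, so it was at least 28.6-fold lower. The 6 leukocyte markers averaged 5.07 to 5.19 in M0505 and 4.72 to 4.76 in STOSE arrays, the 5 endothelial markers 5.76 to 5.84 and 4.76 to 4.80, and the 5 granulosa markers 5.83 to 5.88 and 4.92 to 5.17. In each list 1 gene set this gap, since without *Cd68*, *Kdr* and *Inha* the means were 4.17 to 4.24 and 4.25 to 4.35 for leukocyte, 4.81 to 4.88 and 4.80 to 4.95 for endothelial, and 4.91 to 4.95 and 4.76 to 4.98 for granulosa markers. *Ptprc*, *Csf1r*, *Emr1*, *Pecam1* and *Fshr* lay under 4.74 in both lines. The part of these marker differences in the results below was not tested.

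TEAD factors bind the element GGAATG, read as CATTCC on the other strand. RefSeq promoter windows of build GRCm38.p6, which run from 250 bases before to 50 bases after the start of transcription, were matched for 7 of the 10 genes. *Ctgf*, *Tead1* and *Tead4* had no entry. GGAATG was found on either strand in a window of 6 of the 7, namely *Ankrd1*, *Cyr61*, *Amotl2*, *Lats2*, *Yap1* and *Wwtr1*, and not in that of *Tead2*. Over all 27025 genes with a window the share was 16.6%, and over the 17492 protein-coding ones 15.5%. *Ankrd1* had 2 matches, and more than 1 match was seen in 1.57% of all genes. A match is a stretch of letters and not a bound site measured here, and *Ankrd1*, *Cyr61* and *Amotl2* are textbook TEAD targets, so the share is no independent result. The 250 bases before the start are shown for these 3 target genes, which carry matches. *Ankrd1* and *Cyr61* were called higher in STOSE cells. *Amotl2* was 1.35-fold lower and not called, and its limma adjusted p was 0.0752 after centring on the gene median. Capitals mark GGAATG or CATTCC. The sign after each position is the genome strand printed.
Ankrd1, chr19:36119845-36120094 (-): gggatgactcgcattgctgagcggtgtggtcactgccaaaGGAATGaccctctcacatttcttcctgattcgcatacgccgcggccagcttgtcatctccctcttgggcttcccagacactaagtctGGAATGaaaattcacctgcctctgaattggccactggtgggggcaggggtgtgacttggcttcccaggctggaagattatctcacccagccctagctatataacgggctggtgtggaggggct
Cyr61, chr3:145649986-145650235 (-): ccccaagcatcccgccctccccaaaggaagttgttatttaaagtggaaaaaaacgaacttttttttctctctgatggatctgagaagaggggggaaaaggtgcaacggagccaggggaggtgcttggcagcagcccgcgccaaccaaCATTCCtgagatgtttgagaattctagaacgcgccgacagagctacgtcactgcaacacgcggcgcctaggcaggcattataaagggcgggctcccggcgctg
Amotl2, chr9:102717554-102717803 (+): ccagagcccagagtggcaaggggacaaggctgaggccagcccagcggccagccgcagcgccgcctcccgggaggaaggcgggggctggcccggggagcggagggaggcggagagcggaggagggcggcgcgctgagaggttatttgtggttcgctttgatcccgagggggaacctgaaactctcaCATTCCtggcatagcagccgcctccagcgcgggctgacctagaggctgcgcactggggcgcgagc

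All 7 matches are set side by side below on the strand that reads GGAATG, in capitals, with 12 bases on either side, to show how the surrounding bases differ. Those of *Ankrd1* began 210 and 123 bases before the start, that of *Cyr61* 103, that of *Amotl2* 65, that of *Yap1* 141 and that of *Wwtr1* 136 or 170 bases before it, counted from the starts of its 2 windows. In *Lats2* the match lay 4 bases past the start base of one of its 2 windows.
Ankrd1 upstream match, chr19:36120037-36120066 (-): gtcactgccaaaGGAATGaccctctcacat
Ankrd1 downstream match, chr19:36119950-36119979 (-): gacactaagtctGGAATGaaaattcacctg
Cyr61, chr3:145650071-145650100 (+): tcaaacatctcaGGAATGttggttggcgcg
Amotl2, chr9:102717727-102717756 (-): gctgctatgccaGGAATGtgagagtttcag
Lats2, chr14:57746102-57746131 (-): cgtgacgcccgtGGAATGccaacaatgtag
Yap1, chr9:8004720-8004749 (-): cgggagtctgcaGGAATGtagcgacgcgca
Wwtr1, chr3:57576029-57576058 (-): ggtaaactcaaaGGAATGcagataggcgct

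The target genes split in direction. *Ankrd1* and *Cyr61* rose in STOSE cells, *Ctgf* was higher by less than 2-fold, and *Amotl2* and *Lats2*, targets that act back on the pathway, were lower by less than 2-fold. *Yap1* was not past the test and *Wwtr1* was lower by 1.23-fold, while *Tead2* and *Tead4* rose. In all, 4 of the 10 genes were called higher and 0 lower by limma as by the methods' t-test. By limma 12.5% of all genes were called. At an unadjusted limma p under 0.05 with no fold threshold 6 were higher and 3 lower. At least 56.5% of all genes passed at that p, since that share passed the adjusted p. Because the genes were picked with results of these arrays known, nothing is read from these shares. The arrays of the lines did not overlap in 9 of them (6 higher, 3 lower in STOSE cells), beside 64.6% of all genes (37.6% higher, 27% lower).

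**Figure D1:**
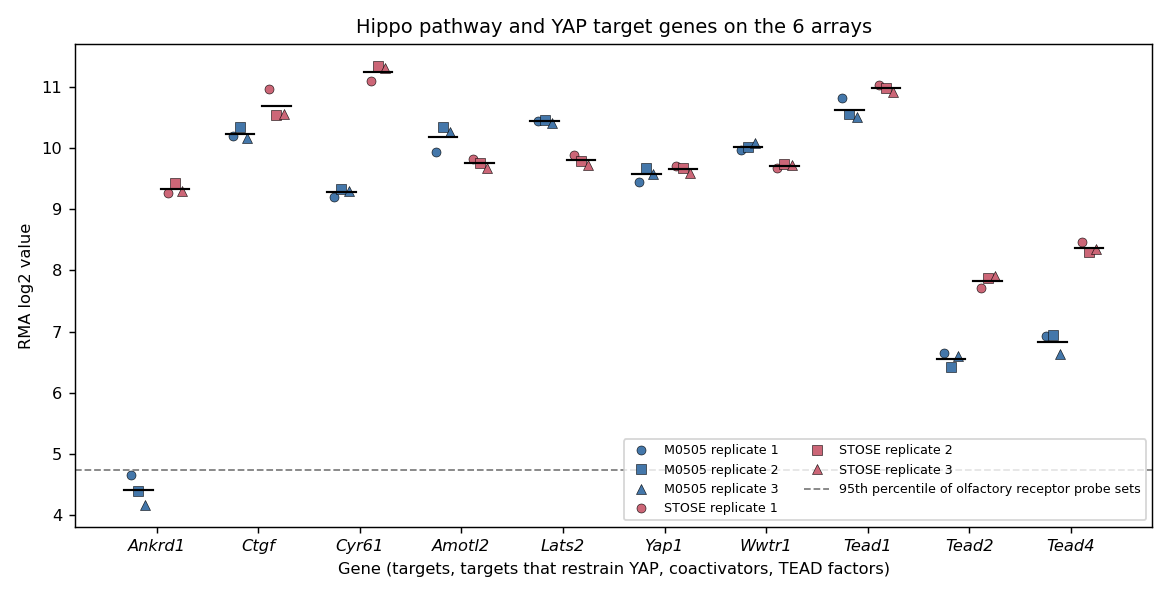
RMA log2 value (vertical axis) of each of the 10 genes (horizontal axis) on the 3 M0505 arrays (blue) and the 3 STOSE arrays (red), with the replicate number by marker shape and the mean as a bar. The lines do not overlap in any gene except *Yap1*, and *Ankrd1* in M0505 cells lies below the dashed line at 4.74.

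*Ankrd1* encodes a nuclear and sarcomeric ankyrin repeat protein and is a much used readout of YAP. Its log2 values were 4.67, 4.40 and 4.17 in M0505 replicates 1 to 3 and 9.27, 9.44 and 9.30 in STOSE replicates 1 to 3. All M0505 arrays lay below the background mark of 4.74, and all STOSE arrays lay far above it. The measured means differed by 4.92 on the log2 scale (standard error 0.12, limma adjusted p = 1.67e-08). Because M0505 cells had only background values, the fold is given as a bound, the STOSE mean against the background mark, and *Ankrd1* was at least 24.2-fold higher in STOSE cells.

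*Cyr61* encodes a secreted matricellular protein of the CCN family that binds integrins. Its values were 9.20, 9.34 and 9.30 in M0505 cells and 11.09, 11.34 and 11.31 in STOSE cells. The gene was well above background in both lines, and the STOSE arrays were all higher. It rose by 1.97 on the log2 scale (standard error 0.08, limma adjusted p = 3.28e-07), or 3.91-fold, rank 199 among the genes called higher.

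*Ctgf*, the closest described relative of *Cyr61* among YAP targets, encodes connective tissue growth factor. Its values were 10.19, 10.34 and 10.17 in M0505 cells and 10.97, 10.54 and 10.56 in STOSE cells. STOSE replicate 1 stood 0.4 or more above the other two, and the lines still did not overlap. The log2 fold change of 0.46 (standard error 0.12, 1.37-fold) passed the adjusted p (0.0100) but not the 2-fold threshold, and it was 0.32 without STOSE replicate 1. By the methods' t-test its p adjusted over all genes was 0.0691.

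*Amotl2* encodes an angiomotin, a junction protein that holds YAP at the membrane and is itself induced by YAP. Its values were 9.93, 10.35 and 10.26 in M0505 cells and 9.82, 9.76 and 9.67 in STOSE cells. M0505 replicate 1 was the lowest of its line and came close to the STOSE arrays. The log2 fold change was -0.43 (standard error 0.11, limma adjusted p = 0.00907), and -0.55 without M0505 replicate 1. After centring on the gene median it was -0.23 with an adjusted p of 0.0752, and by the methods' t-test the adjusted p was 0.0620.

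*Lats2* encodes the kinase that phosphorylates YAP and TAZ and is also a YAP target. It read 10.44, 10.46 and 10.40 in M0505 cells and 9.89, 9.79 and 9.72 in STOSE cells, a tight pair of groups with a clear gap. The log2 fold change was -0.63 (standard error 0.06, limma adjusted p = 4.85e-05), which is 1.55-fold lower. Dropping any single array kept it between -0.67 and -0.59.

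Of the coactivators, *Yap1* read 9.45, 9.68 and 9.58 in M0505 cells and 9.70, 9.67 and 9.60 in STOSE cells, and the lines overlapped. Its log2 fold change was 0.09 with a 95% interval from -0.08 to 0.26 (limma adjusted p = 0.330). After centring on the gene median the value was 0.29 (adjusted p = 0.00580). *Wwtr1*, which encodes TAZ, read 9.96, 10.01 and 10.08 in M0505 cells and 9.68, 9.75 and 9.71 in STOSE cells. Its log2 fold change of -0.30 (standard error 0.06, limma adjusted p = 0.00234) was under 2-fold, with no overlap between the lines. After the same centring it was -0.10 with an adjusted p of 0.153.

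The TEAD factors carry YAP and TAZ to DNA. *Tead4* read 6.92, 6.94 and 6.64 in M0505 cells and 8.46, 8.31 and 8.34 in STOSE cells. Every STOSE array was more than 1 log2 unit above every M0505 array. It rose by 1.53 on the log2 scale (standard error 0.09, limma adjusted p = 2.42e-06), or 2.90-fold. *Tead2*, known from the early embryo and neural tissue, read 6.65, 6.42 and 6.60 in M0505 cells and 7.71, 7.88 and 7.91 in STOSE cells, again without overlap. It rose by 1.27 (standard error 0.08, limma adjusted p = 4.29e-06), or 2.41-fold. Both calls were kept without any single array and under the 3 rescalings tried.

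*Tead1*, a broadly used family member, read 10.82, 10.56 and 10.51 in M0505 cells and 11.02, 10.98 and 10.92 in STOSE cells. M0505 replicate 1 was nearest to the STOSE arrays. The log2 fold change was 0.35 (standard error 0.09, limma adjusted p = 0.00927) and 0.44 without M0505 replicate 1. The other probe set of the gene gave 0.41 (standard error 0.08), with M0505 replicate 1 again the highest of its line at 10.36 against 10.15 and 10.12.

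**Figure D2:**
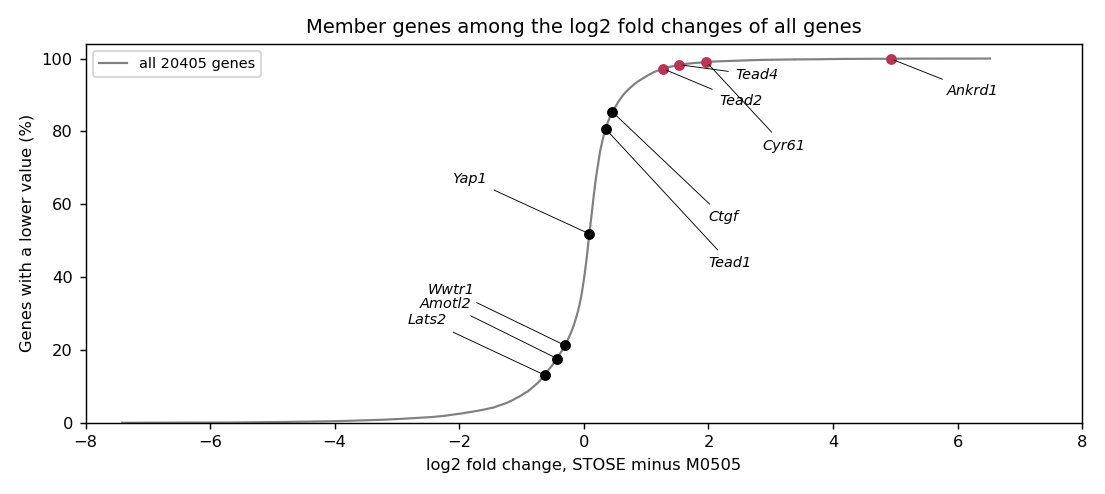
Share of the 20405 genes with a lower log2 fold change (vertical axis, %) against the log2 fold change of STOSE minus M0505 (horizontal axis), with all genes as a grey line, the 4 genes called higher in red and the other 6 in black. *Ankrd1* lies at a measured 4.92 near the top of all genes, *Yap1* at 0.09 near the middle, and *Lats2*, *Amotl2* and *Wwtr1* on the lower side.

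Set beside their family relatives, the called genes stood among others that were not called. *Tead3*, the remaining TEAD gene, read 8.99 to 9.09 in M0505 and 9.03 to 9.08 in STOSE arrays, and its log2 fold change of 0.04 had an interval from -0.10 to 0.17 (limma adjusted p = 0.625, and 0.00603 after centring on the gene median, where it was 0.24). *Lats1*, the partner kinase of *Lats2*, had a log2 fold change of -0.59 (standard error 0.06), and the arrays of the lines did not overlap. The angiomotins *Amot* and *Amotl1* had log2 fold changes of 0.32 and 0.71 where *Amotl2* had -0.43, none of them 2-fold. These relatives were named for their family and not by the rule for called genes, and the differences between relatives were not tested.

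Of 6 relatives of *Cyr61*, *Ctgf* and *Ankrd1*, 0 were called by limma or the methods' t-test, beside 12.5% of all genes by limma. At an unadjusted limma p under 0.05, which at least 56.5% of all genes passed, 5 were higher and 1 lower. *Wisp1*, a CCN gene induced by Wnt signaling, read 8.89 ± 0.12 (SD, n = 3) in M0505 and 9.45 ± 0.03 in STOSE cells, a log2 fold change of 0.56. *Wisp2*, *Wisp3* and *Nov* had log2 fold changes of 0.39, 0.27 and 0.23, with the M0505 means of *Wisp3* and *Nov* under the background mark. The muscle ankyrin repeat genes *Ankrd2* and *Ankrd23* read 5.36 ± 0.09 and 6.94 ± 0.28 in M0505 cells, with log2 fold changes of 0.20 and -0.45.

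**Figure D3:**
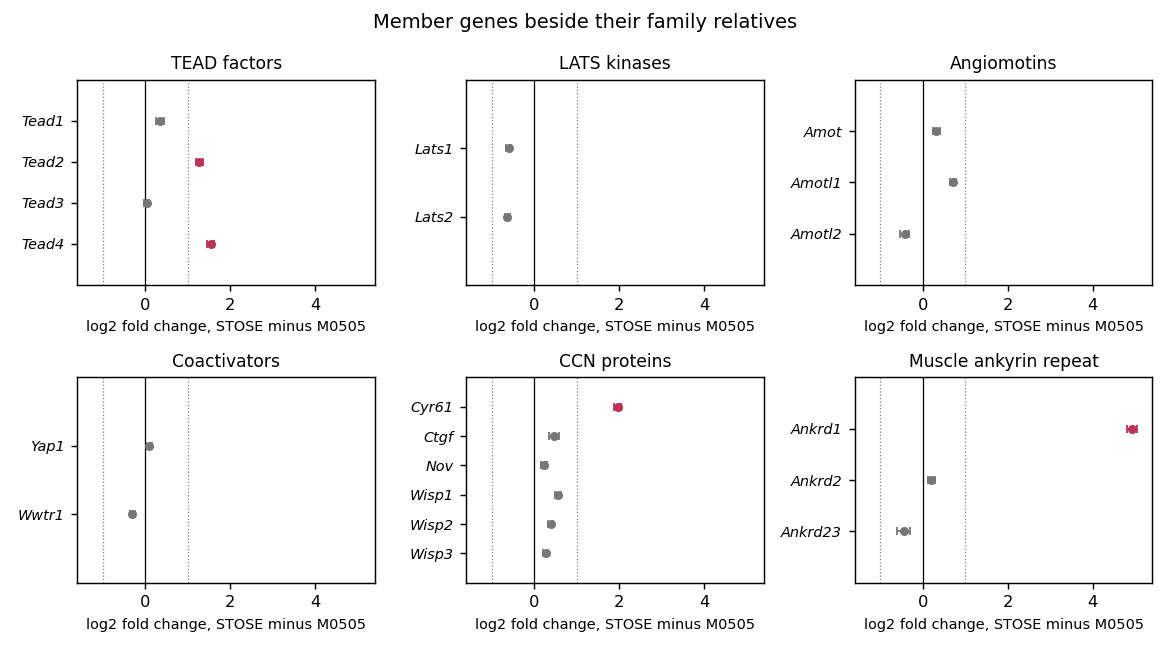
log2 fold change of STOSE minus M0505 (horizontal axis) for the 10 genes and their family relatives, 1 family per panel, with the standard error of the limma fit as bars, genes called higher in red, genes not called in grey and dotted lines at 2-fold. *Tead2*, *Tead4*, *Cyr61* and *Ankrd1* lie past the dotted line, and their relatives lie inside it.

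The Vestigial-like cofactors compete with YAP for the TEAD factors, and of *Vgll1*, *Vgll2*, *Vgll3* and *Vgll4* 0 were called by limma or the methods' t-test. By limma 12.5% of all genes were called. With *Tead3* counted, 1 of the 5 was higher and 0 lower at an unadjusted limma p under 0.05, which at least 56.5% of all genes passed. *Vgll3* was read well above background at 10.56 ± 0.02 (SD, n = 3) in M0505 and 10.49 ± 0.08 in STOSE cells. *Vgll4* read 9.09 ± 0.24 and 9.08 ± 0.03, and *Vgll1* lay under the background mark in both lines. The log2 fold changes of *Vgll1*, *Vgll3* and *Vgll4* lay between -0.07 and 0.07 and changed sign among the rescalings tried. *Vgll2* read 6.41 ± 0.08 and 6.70 ± 0.12, a log2 fold change of 0.29 (limma adjusted p = 0.0149).

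Other target genes of YAP and TAZ went in both directions, as did genes in all. In a list of 17 further genes of a published target signature, 1 was called higher and 1 lower, beside 4.9% and 7.59% of all genes. The median log2 fold change was -0.20 beside 0.08 over all genes. At the adjusted p alone, 4 were higher and 6 lower, beside 31.6% and 24.8% of all genes. These counts lie near those shares and are not read as a result about targets. After centring on the gene median 6 were higher and 5 lower at the adjusted p. *Foxf2*, a forkhead factor of mesenchyme, rose from 7.71 ± 0.20 (SD, n = 3) to 8.86 ± 0.13, or 2.22-fold (limma adjusted p = 3.78e-05). *Gadd45a*, a growth arrest and DNA damage gene, fell from 9.28 ± 0.23 to 8.19 ± 0.34, or 2.12-fold (limma adjusted p = 0.000864). Its call was lost after centring on the gene median (log2 fold change -0.88), without M0505 replicate 1 (-0.95), without STOSE replicate 2 (-0.98) and without STOSE replicate 3 (-0.99).

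Among 12 further genes described as targets, 4 were called higher and 2 lower, beside 4.9% and 7.59% of all genes. Their median log2 fold change was 0.19. With no fold threshold 6 were higher and 3 lower at the adjusted p, beside 31.6% and 24.8% of all genes. The list was chosen with earlier results of these arrays known and was not tested against those shares. *Ereg*, an EGF receptor ligand, rose from 4.03 ± 0.18 (SD, n = 3), under the background mark, to 9.16 ± 0.10, at least 21.4-fold higher by the same bound. *Thbs1*, which encodes the matricellular protein thrombospondin 1, rose from 8.21 ± 0.11 to 11.59 ± 0.13, or 10.4-fold. *Edn1*, the endothelin 1 gene, and *Birc5*, which encodes the mitotic protein survivin, rose 2.70-fold and 2.37-fold. *Bmp4*, a secreted growth factor, fell from 9.98 ± 0.22 to 4.67 ± 0.05, under the background mark, so it was at least 37.7-fold lower. For these 5 genes the limma adjusted p was at most 2.54e-06 and the lines did not overlap.

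**Figure D4:**
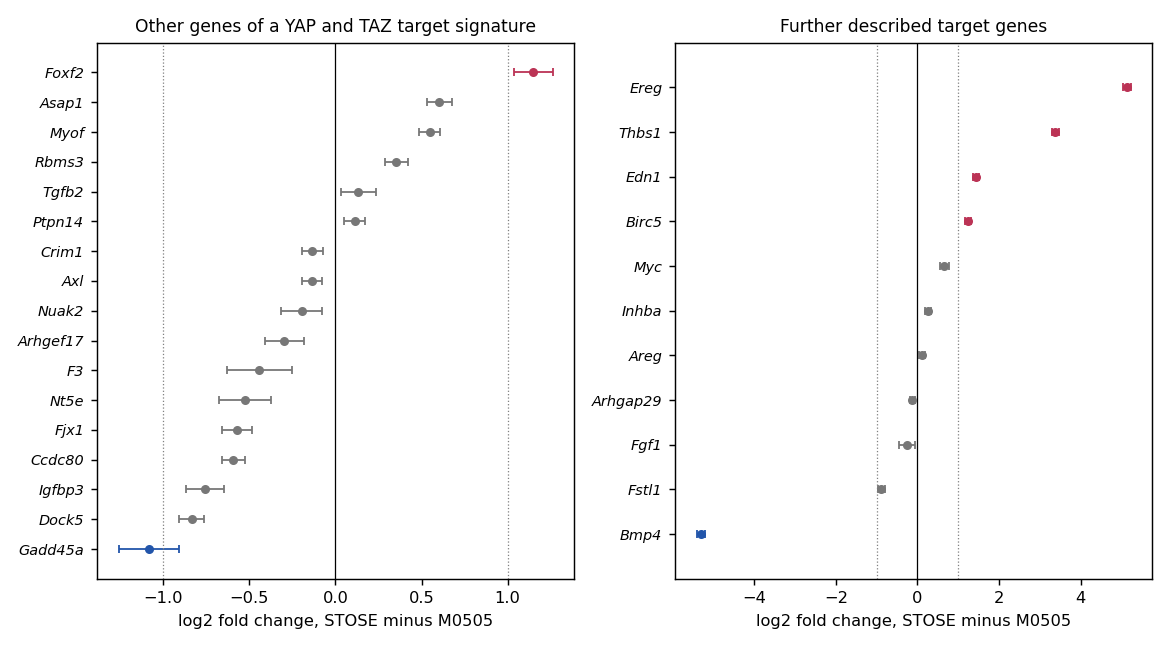
log2 fold change of STOSE minus M0505 (horizontal axis) for 17 other genes of a YAP and TAZ target signature (left) and the further described targets reported here (right, wider scale), with the standard error of the limma fit as bars, called genes in red (higher) or blue (lower), the rest in grey and dotted lines at 2-fold. The genes spread to both sides of 0, from *Ereg* at a measured 5.13 to *Bmp4* at -5.31, each with 1 line under the background mark.

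The 15 other genes of the kinase module, *Lats1* among them, held 0 calls in either direction by limma or the methods' t-test. By limma 12.5% of all genes were called. The median log2 fold change of the 15 was -0.06. At the adjusted p alone 4 were higher and 5 lower, beside 31.6% and 24.8% of all genes. At the unadjusted p, which at least 56.5% of all genes passed, 4 were higher and 6 lower. At the adjusted p after centring on the gene median the counts were 7 and 4. *Sav1*, the scaffold of the MST kinases, lay at the threshold, with 7.62 ± 0.04 (SD, n = 3) in M0505 and 8.62 ± 0.02 in STOSE cells. Its difference of 1.99-fold (limma adjusted p = 1.56e-06) passed 2-fold under all 3 rescalings.

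Of 19 junction and polarity regulators, 3 were called higher and 1 lower, beside 4.9% and 7.59% of all genes. Their median log2 fold change was 0.26. *Wwc1*, which encodes the LATS activator KIBRA, rose from 6.84 ± 0.11 (SD, n = 3) to 9.16 ± 0.05, or 4.99-fold (limma adjusted p = 6.66e-08). *Frmd6*, a FERM protein gene, rose from 7.92 ± 0.12 to 9.02 ± 0.14, or 2.15-fold. *Fat4*, an atypical cadherin, rose from 4.64 ± 0.06, under the background mark, to 5.67 ± 0.12, with measured means 2.04-fold apart. Against the background mark it was at least 1.90-fold higher, and its log2 fold change was 0.96 without STOSE replicate 2. *Inadl*, which encodes the tight junction scaffold PATJ, fell from 6.97 ± 0.09 to 5.20 ± 0.04, or 3.42-fold (limma adjusted p = 1.77e-07). At the adjusted p alone 10 were higher and 8 lower, beside 31.6% and 24.8% of all genes. After centring on the gene median 11 were higher and 6 lower at the adjusted p.

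The 9 listed genes of STRIPAK, the phosphatase complex that opposes the MST kinases, held 0 calls by limma or the methods' t-test. By limma 12.5% of all genes were called. The list did not hold the whole complex. At the adjusted p alone 4 were higher and 3 lower, beside 31.6% and 24.8% of all genes. The unadjusted p, which at least 56.5% of all genes passed, gave the same counts. At the adjusted p after centring on the gene median the counts were 6 and 1. The largest difference was that of *Strn3*, a striatin scaffold, at 8.88 ± 0.03 (SD, n = 3) in M0505 and 9.55 ± 0.03 in STOSE cells, a log2 fold change of 0.67.

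**Figure D5:**
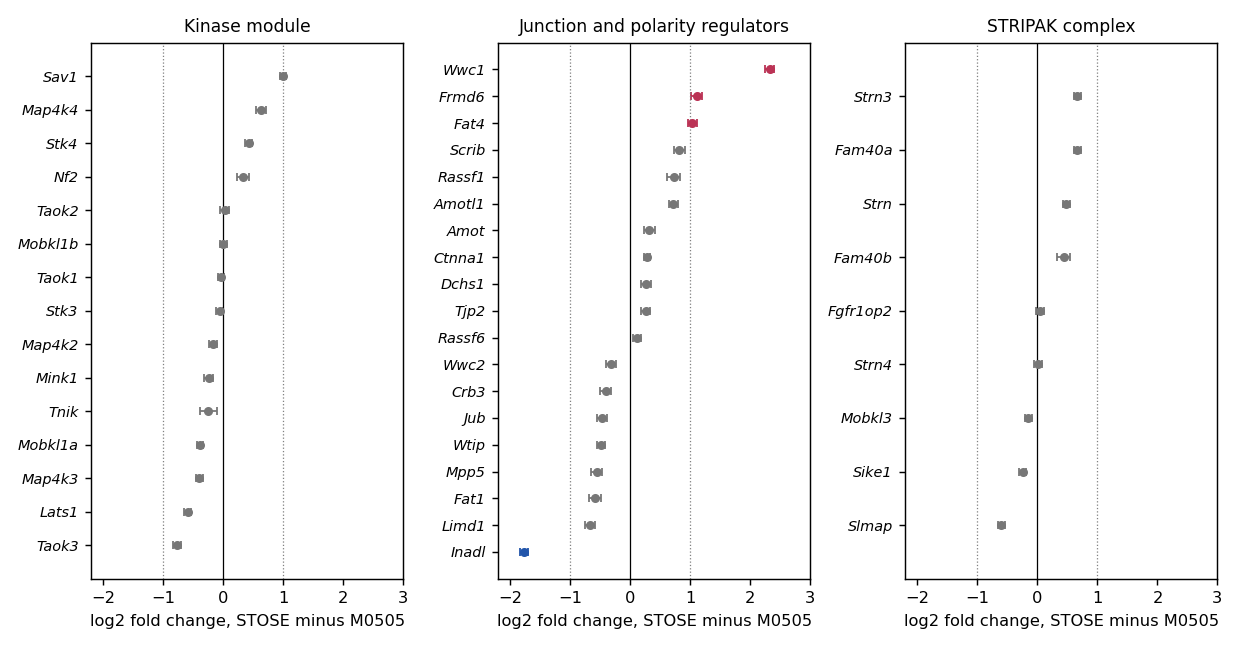
log2 fold change of STOSE minus M0505 (horizontal axis) for 15 kinase module genes, 19 junction and polarity regulators and 9 STRIPAK genes, with the standard error of the limma fit as bars, called genes in red (higher) or blue (lower), the rest in grey and dotted lines at 2-fold. *Wwc1* at 2.32 and *Inadl* at -1.78 lie farthest from 0, and *Sav1* lies on the dotted line.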

How the data were processed

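Total RNA of 3 M0505 and 3 STOSE samples was measured on Mouse Gene 1.0 ST arrays (Affymetrix). The authors deposited RMA log2 values (Affymetrix Expression Console per the labels, version not given in the sources used here), background corrected, quantile normalized and summarized per probe set. The deposited means, ratio and linear fold change columns of the authors were not used. No probe-level signal entered the work, and the background correction stayed as deposited.

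Of 28944 probe sets 23530 carried a symbol and stood for 20405 genes, each read by its brightest probe set. STOSE and M0505 were compared with lmFit and eBayes (limma 3.58.1, R 4.3.3) without covariates, and the code was checked on simulated data. With 3 arrays per line an exact permutation p cannot go below 0.1. The number of arrays limits the precision. The members, gene lists and tests were chosen with earlier results of these data known. Named genes are the 10 members, the called genes of each list (or the largest difference where none was called) and all genes of lists with under 7. Markers were named where their list held a called gene. Of the further targets 1 gene is counted but not reported here. Promoters came from RefSeq (GRCm38.p6), and no build is given by the deposited values. Alternatives were rescalings, filters on dim genes, other tests and fold thresholds, the mean of probe sets, a replicate block and leaving out each array. Same-numbered M0505 and STOSE arrays had deviations from their line means that correlated at 0.26, 0.04 and 0.25.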

Additional observations from a re-analysis of the deposited data

How the results depend on the processing

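The 4 members called higher and the 0 called lower were the same in number under all 3 rescalings, both filters on dim genes, the mean of probe sets, the methods' t-test (adjusted or not), limma with a trend, and with any array left out. None of the members and no called list gene reversed under these alternatives, while *Axl*, *Crim1*, *Stk3* and other uncalled list genes near 0 changed sign under a rescaling. The fold threshold moved the counts most. Further targets were 6 higher and 3 lower at the adjusted p alone, and 5 and 3 at 1.5-fold. At the adjusted p alone the members called were 6 higher and 3 lower, the signature targets 4 and 6, the kinase module 4 and 5, the junction regulators 10 and 8, STRIPAK 4 and 3, the TEAD cofactors 1 higher, the CCN and ankyrin relatives 4 and 1, and all genes 6454 and 5066. At 1.5-fold there was 1 member lower (*Lats2*), and the counts were 2 and 4 for signature targets, 2 and 2 for the kinase module, 6 and 3 for junction regulators, 2 and 1 for STRIPAK, and 2245 and 2871 for all genes. At 4-fold there was 1 member higher (*Ankrd1*), with 0 and 0 signature targets, 2 and 1 further targets, 1 and 0 junction regulators, and 186 and 509 genes in all. Centring on the gene median left 0 signature targets and 1 further target lower. It called 1 kinase module gene (*Sav1*) higher, as did a further quantile normalization (1) and centring over all probe sets (1), the last chosen after seeing the data. Without the dimmest 50% of genes 0 junction regulators were lower, since *Inadl* was not tested. With each array left out, signature targets lower ranged from 0 to 1 (*Gadd45a*), further targets lower from 1 to 2 (1 without M0505 replicate 1) and kinase module genes higher from 0 to 1 (*Sav1*). The causes were not tested. Values at or under the background mark, as for *Ankrd1* and *Ereg* in M0505 cells and *Bmp4* in STOSE cells, limit how well those folds are known.

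The labels do not say whether the replicate numbers mark pairs. The correlation of deviations was 0.26, 0.04 and 0.25 for same-numbered arrays, and -0.29 to 0.12 for differently numbered ones. Whether the numbers share a factor was not tested, and the fit without pairs was kept. With the replicate block 4 members were called higher and 0 lower, and the calls over all genes were 1001 higher and 1548 lower against 1000 and 1548 without it.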

Other observations

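The spread between arrays differed among the 10 genes. The pooled SD of the log2 values within a line was 0.19 for *Ankrd1*, 0.18 for *Ctgf* and 0.16 for *Amotl2*, and 91.8%, 91.2% and 87.3% of all genes had a smaller one. *Wwtr1* (0.05) and *Lats2* (0.06) were among the steadier genes, with 12.5% and 24.5% of genes below them. The wider spreads lay mostly in 1 line. The SDs in M0505 and STOSE cells were 0.25 and 0.09 for *Ankrd1*, 0.09 and 0.24 for *Ctgf*, and 0.22 and 0.08 for *Amotl2*. All M0505 values of *Ankrd1* lay below the background mark.

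GGAATG was also counted in the promoter windows of the other lists. It was found in 3 of 11 signature targets with a window, 1 of 7 further targets, 2 of 12 kinase module genes, 5 of 13 junction regulators, 1 of 7 STRIPAK genes, 4 of 5 genes of the list of *Tead3* and the Vestigial-like cofactors, and 1 of 3 relatives. The share over all genes with a window was 16.6%, and no list was tested against it. The pattern TGANTCA, with any base at N, covers the AP-1 element, which factors that act with TEAD can bind, and other sequences. This pattern was found in 0 of the 7 members with a window and in 8.97% of all genes with a window.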
